A study of Mus musculus with 8 samples.

Results

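The Zfp532 locus was taken as the stretch of chromosome 18 from 65730000 to 65860000 (mouse build mm9), 130 kb in length. It held 211 of the 393283 peaks of 5-hydroxymethylcytosine (5hmC) in 8 hippocampal samples, and merging peaks that overlapped by 1 bp or more gave 46 of the 156744 regions of the genome. The locus was chosen from these same peak lists, on the scores of a region with a peak in the young samples alone and of a region missing from the aged enriched samples alone. Presence, scores and lengths at the locus are therefore described without a test. The last region before the window lay at 65724709 to 65725703 (a peak in 2 samples) and the first after it at 65861479 to 65862008 (1 sample). The regions nearest to the edges inside it lay at 65733265 to 65734214 and at 65857732 to 65858917 (3 samples each).

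The DNA came from hippocampi of C57BL/6 mice. After sonication, 5hmC was tagged with an azide sugar by a glucosyltransferase, linked to biotin and captured, so a peak marks an enriched stretch and not a level at single bases. Young control and young enriched mice were 6 weeks old, and aged control and aged enriched mice were 18 months old. Control mice were kept in standard cages, and enriched mice were also given a roomy chamber with objects to explore and a wheel, for 5 h a day during 4 weeks. Each group had 2 samples, and whether these came from separate animals is not given in the sources used here. DNA peaks carry no expression markers, so the tissue named in the labels could not be checked, and in such bulk samples a change in the cells present and a change of 5hmC within cells cannot be told apart.

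5hmC is made when TET enzymes oxidise 5-methylcytosine, and it is abundant in neurons, where it is known to lie in gene bodies and at distal regulatory elements. Zfp532 encodes a zinc finger protein, and its human counterpart, ZNF532, is known as a fusion partner of NUTM1 in NUT carcinoma. In the RefSeq gene table (GRCm38.p6) Zfp532 spans 109.2 kb, so the window is longer than the gene. On its lower side the next protein-coding genes are Malt1, a paracaspase of immune receptor signalling, Alpk2, an alpha kinase, and Nedd4l, a ubiquitin ligase. On its higher side they are Oacyl, Sec11c, a subunit of the signal peptidase, and Grp, which encodes gastrin-releasing peptide. The pseudogene Gm18281 lies within Zfp532. No annotation in mm9 was used here, so the regions were not placed in exons or introns, and how far the window reaches past the gene on each side is not given.

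The locus was among the densest stretches of 5hmC in the genome. Its 46 regions stood beside a median of 3 in 20224 windows of the same length, and 42 of those windows held as many or more. On chromosome 18 that was the case in 2 of 696 windows. The windows run up to the last peak on each chromosome and include stretches with no peak. They lie end to end at fixed positions, while the window of the locus was placed around it and is not 1 of them. Fixed windows can cut a dense stretch in parts, so these ranks may favour the locus. In the single lists the locus held more peaks than 98.45% of windows in aged enriched replicate 1 and than 99.66% to 99.90% in the other 7 samples.

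Young samples had the most of the locus under peaks and aged enriched samples the least. Peaks covered 34.5 and 50.6 kb in the young control samples (42.6 ± 11.4 kb, mean ± SD, n = 2) and 39.5 and 39.6 kb in the young enriched samples (39.6 ± 0.07 kb, SD, n = 2). They covered 32.5 and 20.2 kb in the aged control samples (26.4 ± 8.70 kb, SD, n = 2) and 8.54 and 8.81 kb in the aged enriched samples (8.68 ± 0.19 kb, SD, n = 2). Every young sample lay above every aged sample, and both aged enriched samples lay below both aged control samples. The young groups overlapped. In numbers of peaks the order was less clear, with 25 and 36 in young control, 32 and 33 in young enriched, 33 and 23 in aged control, and 10 and 19 in aged enriched samples. Counting peaks with a score of at least 100, the aged control samples had 7 and 5 and the aged enriched samples 3 and 17, so the order of the aged groups by number was not kept. The median score of the whole list was 117 in aged enriched replicate 2 and 61.0 to 78.7 in the others, and its part in counts above a score was not tested.

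Group means kept this order over the whole lists, but single samples did not: peaks covered 2.23% of the genome in aged control replicate 1, against 1.71% in young control replicate 1 and 2.11% in young enriched replicate 1. The mean length at the locus in young samples was 2.34 times that in aged samples, where the whole lists gave 2.04 times. Aged enriched samples had 0.329 times the length of aged control samples at the locus and 0.356 times over the whole lists. Young enriched samples had 0.93 times the length of young control samples at the locus and 0.888 times over the whole lists. Relative to the share of the genome under peaks in the same list, the locus was covered 15.5-fold and 11.8-fold in young control and 14.4-fold and 13.1-fold in young enriched samples. The folds were 11.2 and 13.0 in aged control and 9.44 and 13.0 in aged enriched samples. On this relative scale the samples of the 2 ages overlapped, and so did those of the aged groups. The ratio of young to aged means was 1.17 on this scale, 1.46 with a score of at least 100 and 1.62 in equally long lists. Without young control replicate 2 the ratio of young enriched to young control length was 1.15. Read numbers are unknown, and their part in the lengths was not tested. With a score of at least 100 the ratio of young to aged length was 3.85 and that of aged enriched to aged control 0.72, and in equally long lists the latter was 0.502.

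**Figure D1:**
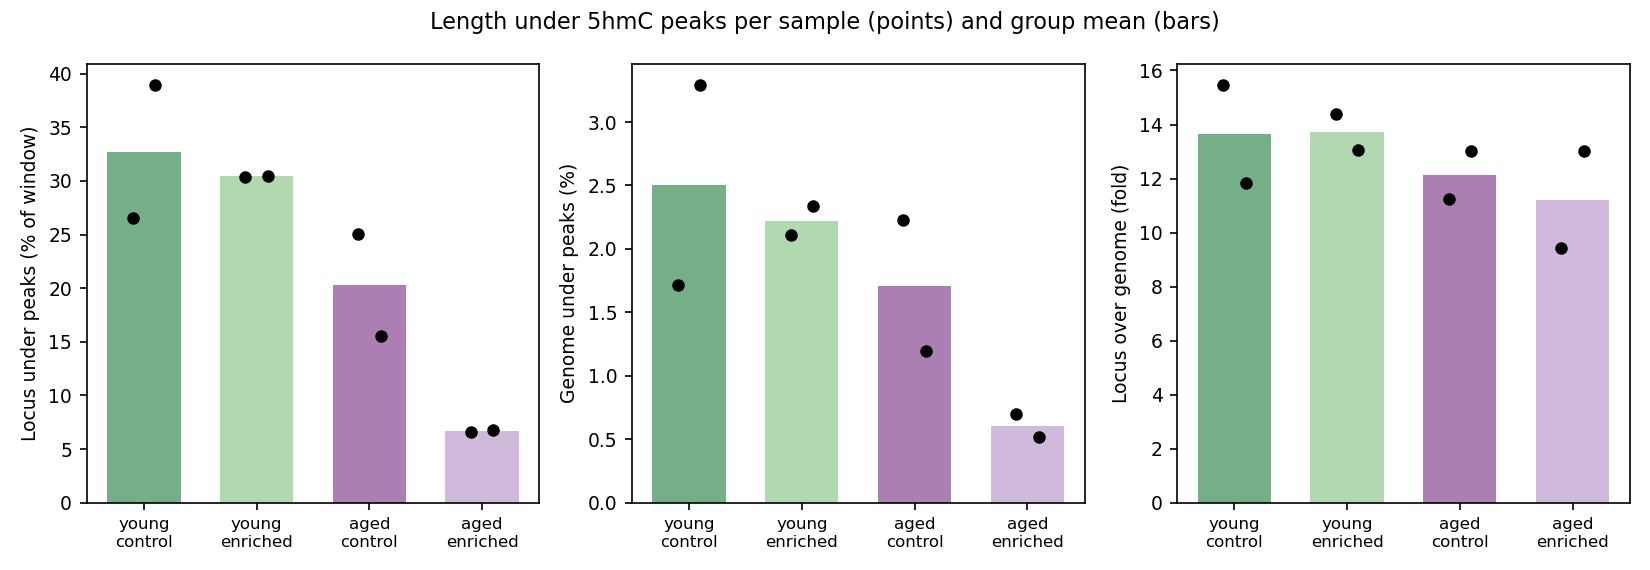
Percent of the 130 kb window under peaks (left), percent of the genome up to the last peak of each chromosome under peaks (middle) and the ratio of both (right), with points for the 8 samples and bars for the group means. Aged enriched samples were lowest at the locus (6.57% and 6.78%) and in the genome, while the ratio ran from 9.44 to 15.5 with overlap between groups.

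The aged enriched samples differed from each other in the form of their peaks. Median peak width at the locus was 1095 and 1223 bp in young control, 1093.5 and 1102 bp in young enriched, 837 and 801 bp in aged control, and 783 and 439 bp in aged enriched samples. Aged enriched replicate 1 thus had few peaks of near the aged control width, and aged enriched replicate 2 had more peaks that were narrow. In the 14 regions that aged enriched replicate 2 shared with a young sample, its peaks covered less than those of every young sample with a peak there in all 14, with a median of 466.5 bp. For aged enriched replicate 1 that was so in 7 of 9 regions, with a median of 785 bp. Narrow peaks marked the whole list of aged enriched replicate 2, with a median of 430 bp, and the part of this library difference in the results at the locus was not tested.

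Coverage was uneven along the window. Of 5 stretches of 26 kb, counted from the lower coordinate, the middle one and the last held the most in every young sample. The middle stretch held 8.04 and 13.1 kb under peaks in young control, 10.3 and 9.71 kb in young enriched and 10.5 and 4.51 kb in aged control samples, against 1.41 and 0.9 kb in aged enriched samples. The second stretch held more than the middle one in the aged enriched samples (2.59 and 1.9 kb) and aged control replicate 2 (4.58 kb), and less in the others. The last stretch held 9.45 to 12.9 kb in young, 6.47 and 5.93 kb in aged control and 3.16 and 2.27 kb in aged enriched samples. In the first stretch aged enriched replicate 1 had no peak, and all other samples had 1.84 to 8.36 kb.

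**Figure D2:**
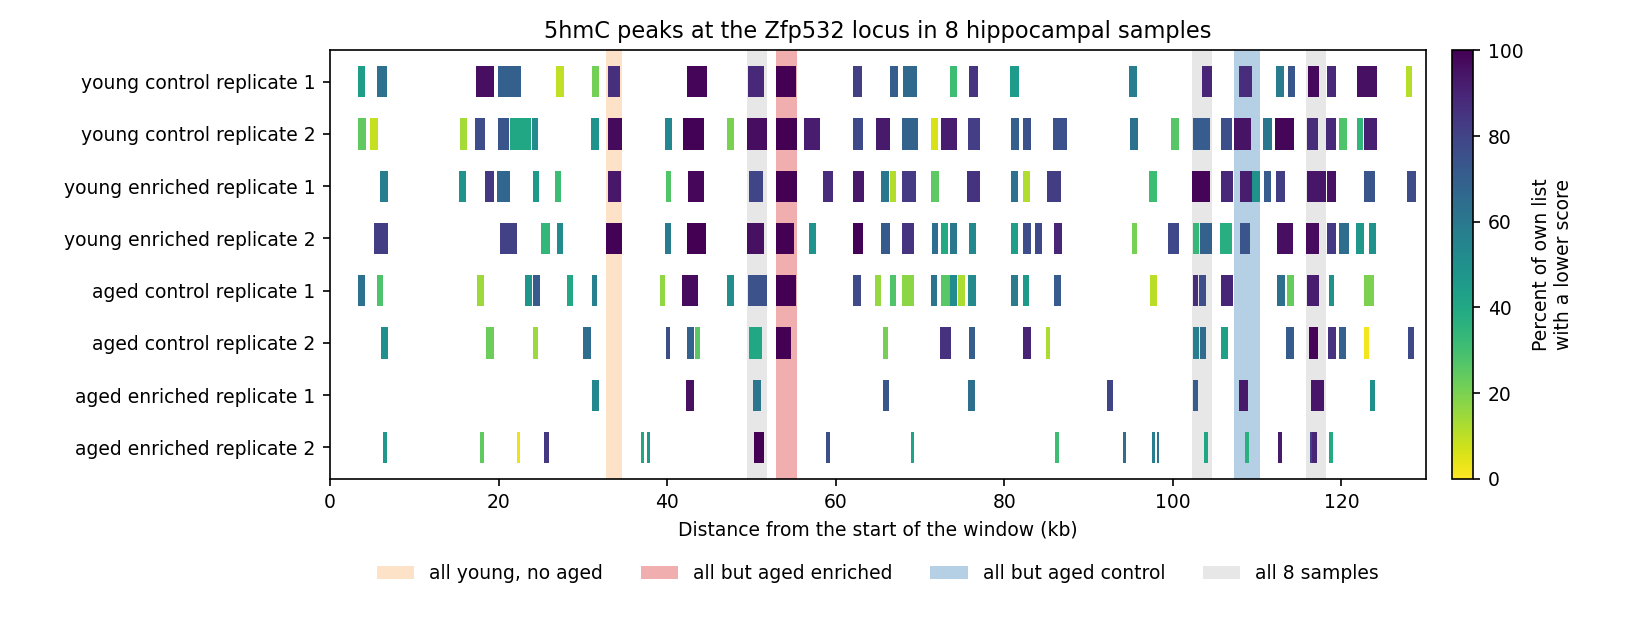
Peaks of each of the 8 samples (rows) along the window, in kb from its lower end, coloured by the percent of peaks in the same list with a lower score. Shaded bands mark the region with a peak in all young and no aged samples, the one missing from aged enriched samples, the one missing from aged control samples and the 3 regions that every sample holds.

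Regions at the locus were shared by more samples than regions elsewhere. A peak in 1 sample only was found in 8 of 46 regions (17.4%), against 46.7% of all regions, and a peak in 4 or more samples in 25 (54.3%), against 22.5%. All 8 samples had a peak in 3 regions (6.5%), against 1.31%, and 7 regions had a peak in all other samples when either aged enriched sample was left out. With a score of at least 100 all 8 samples had a peak in 1 region, with merging over 500 bp in 5, and in 0 when 50% of the region had to be under peaks. Regions were 332 to 5009 bp wide, with a median of 1280.5 bp against 892 bp genome-wide, and together they filled 55.5% of the window. The gaps between neighbours had a median of 862 bp, the longest being 8402 bp between regions 2 and 3. Regions are numbered here from 1 to 46 from the lower to the higher coordinate.

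**Figure D3:**
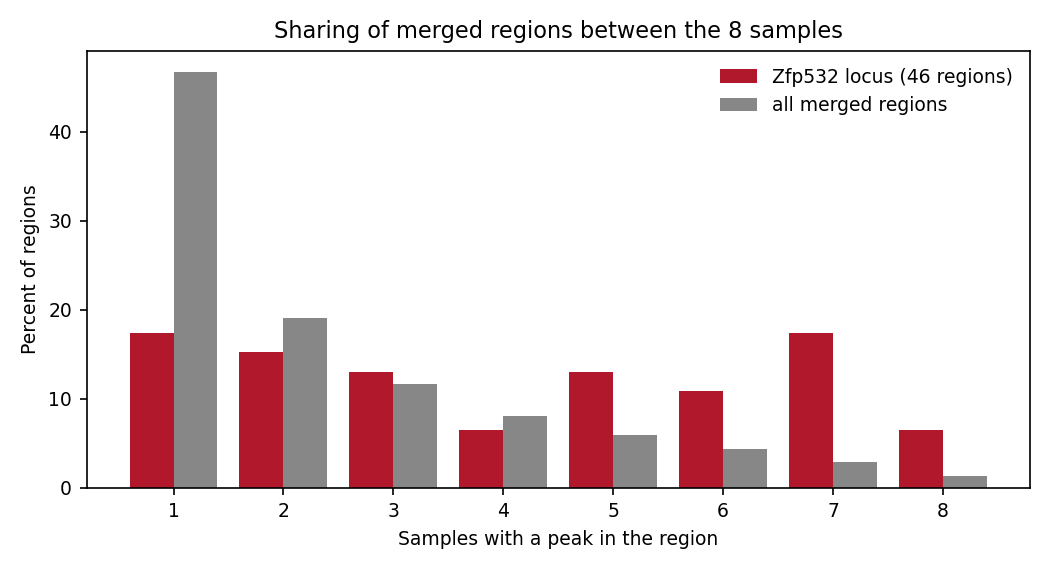
Percent of merged regions (vertical axis) by the number of samples with a peak in them (horizontal axis), for the 46 regions of the locus and for all 156744 regions. Regions of 1 sample made up 17.4% at the locus and 46.7% genome-wide, and regions of 7 samples 17.4% and 2.9%.

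Replicates of every group shared more of their regions here than over the genome, and aged enriched samples shared few in both. Young control samples both had a peak in 22 of the 35 regions that either held (62.9%, genome 31.7%), and young enriched samples in 23 of 36 (63.9%, genome 35.1%). Aged control samples did so in 18 of 31 (58.1%, genome 24.6%), and aged enriched samples in 4 of 23 (17.4%, genome 10.5%). A peak in both aged enriched samples was thus found in 4 of all 46 regions, against 3.26% of regions in the genome. Taking the bases that 2 lists both cover as a percent of those that either covers, the overlap was 48.1% to 59.3% for the 6 pairs of young samples and 10.4% to 34.1% for the 6 pairs of aged samples. Over the genome these pairs gave 27.9% to 35.3% and 5.8% to 20.1%.

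More young than aged samples had a peak in 29 regions (63.0%), against 56.9% of all regions, and fewer in 8 (17.4%), against 28.6%. Of these 8, 7 had a peak in a single aged sample and in no young sample. Peaks in aged samples only were thus found in 15.2% of the locus regions, against 24.6% of all regions. A peak in young samples only was found in 8 regions (17.4%), against 36.1% of all regions. More aged control than aged enriched samples had a peak in 25 regions (54.3%), against 37.0%, and fewer in 7 (15.2%), against 18.0%. As many young control as young enriched samples had a peak in 30 regions (65.2%), against 46.9%. The shares of all regions include the many with a peak in 1 sample only, which are fewer at the locus.

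The strongest region of the locus, region 18, was held by the 6 young and aged control samples and by neither aged enriched sample. It lay at 65782866 to 65785412 (2547 bp). Its scores were 473 and 578 in young control, 431 and 469 in young enriched, and 522 and 307 in aged control samples. The score is the peak caller's value, higher for a clearer peak, and its scale may differ between lists. Scores of different lists are printed side by side as a description, and ranks are those within a list. In each of the 6 lists the peak scored above 99.63% to 99.84% of the list and was the highest of the locus. The peaks started within 103 bp of each other and ended within 655 bp. Those in aged control samples covered 2438 and 1867 bp, against 2168 to 2547 bp in young samples.

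Aged enriched samples had peaks on both sides of region 18. Aged enriched replicate 1 had its nearest peaks 1777 bp below and 10258 bp above it, and aged enriched replicate 2 had them 1380 bp below and 3420 bp above. Among all regions of the genome 1.52% had a peak in every sample but the aged enriched ones, and the locus held 1 such region, or 3 without aged control replicate 2, 4 without young control replicate 1 and 5 without either aged enriched sample. Region 18 was first of these 2377 in median score rank within the lists, the measure by which the locus was chosen. A peak in all 6 of these samples was found in 7951 regions, of which 29.9% had none in aged enriched samples.

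Region 17, only 979 bp below region 18, had a peak in all 8 samples. It lay at 65779527 to 65781886 (2360 bp), with scores of 130 and 249.95 in young control, 106 and 196 in young enriched, 99.4 and 62.7 in aged control and 65.9 and 342 in aged enriched samples. In aged enriched replicate 2 it was the strongest peak of the locus, above 99.66% of its list, whereas in aged control replicate 2 it lay above 40.4% of the list. Region 18 was above region 17 in score within each of the 6 lists that held both. In the aged enriched lists only region 17 had a peak.

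Region 11, with a peak in all 4 young and no aged samples, lay at 65762762 to 65764672 (1911 bp), 18.2 kb below region 18. Its scores were 123 and 274 in young control and 161 and 320 in young enriched samples, above 86.7%, 97.4%, 93.8% and 99.3% of their lists. The 4 peaks covered 1431 to 1865 bp and started within 280 bp of each other. Genome-wide 0.894% of regions had this pattern, and the locus held 1, or 3 without aged control replicate 1. Region 11 was second among those 1401 in median score rank, again the measure of the choice. Of 15639 regions with a peak in all young samples 8.96% had none in aged samples.

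Aged samples were not empty around region 11. The nearest aged control peaks lay 1123 bp from it in replicate 1 and 1765 bp in replicate 2, and the nearest aged enriched peaks 867 bp and 2192 bp. The neighbour below it, region 10 (65761002 to 65761894), had peaks in both young control samples (scores 56.5 and 78.0), in aged control replicate 1 (77.7) and in aged enriched replicate 1 (62.7). It is 1 of 2 regions with a peak in both young control and no young enriched samples, beside region 1 (2.78% of all regions), and the reverse pattern (2.13% of all regions) was not found at the locus. Above region 11, regions 12 and 13 had a peak in aged enriched replicate 2 alone, with widths of 412 and 348 bp.

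**Figure D4:**
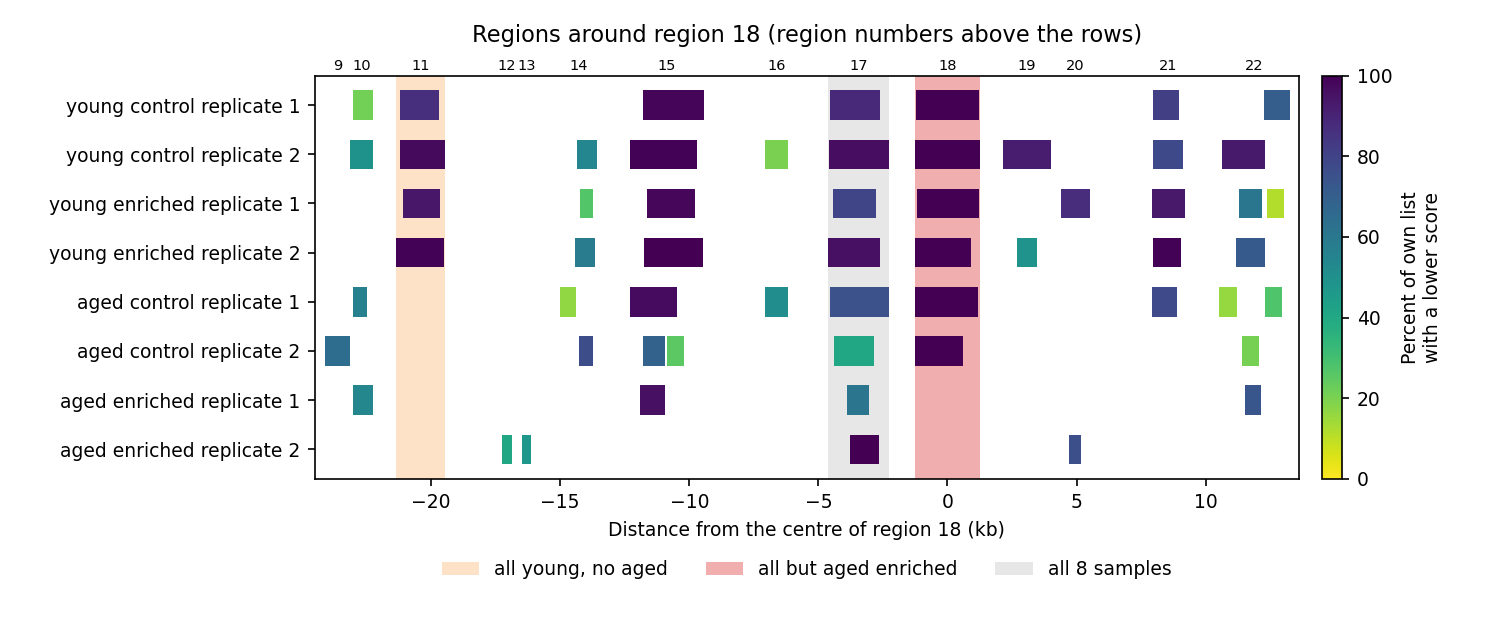
Peaks of each of the 8 samples (rows) from region 9 to region 22, in kb from the centre of region 18, coloured by the percent of peaks in the same list with a lower score, with region numbers on top. Region 18 has no bar in either aged enriched sample and region 11 none in any aged sample, while region 17 has a bar in every row.

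Between regions 11 and 18, region 15 (65771827 to 65774720) was the other strong site. Its scores were 259 and 446 in young control, 231 and 382 in young enriched, and 222 and 81.1 in aged control samples. Aged enriched replicate 1 had its highest score of the locus there (126, above 95.9% of its list), and aged enriched replicate 2 had no peak within 3830 bp. Of regions 15, 17 and 18, the aged enriched samples thus differed from each other only at region 15, while both had region 17 and neither had region 18. Region 14 (65769146 to 65770567) was weaker, at 82.7 in young control replicate 2, 59.1 and 79.9 in young enriched and 55.1 and 90.3 in aged control samples, with no aged enriched peak.

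A region with the opposite contrast in aged mice lay near the higher end of the window. Region 39, at 65837273 to 65840374 (3102 bp) and 51.9 kb above region 18, had a peak in every young and both aged enriched samples and in neither aged control sample. Its scores were 125 and 221 in young control, 150 and 98.4 in young enriched and 113 and 108 in aged enriched samples. Within their lists the aged enriched peaks lay above 93.7% in replicate 1 but only 36.6% in replicate 2, and the young ones above 73.9% to 95.1%. Such a pattern was held by 123 of all regions (0.0785%). The peaks in young samples covered 1102 to 2324 bp and those in aged enriched samples 1055 and 448 bp. Aged control peaks came close to it, ending 89 bp below it in replicate 1 and 773 bp below it in replicate 2. When peaks up to 500 bp apart were merged, all 8 samples had a peak in the region that held it, and with a score of at least 100 it was left with 5 samples. When 50% of the region had to be under peaks, 3 samples held it.

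The reverse, both aged control and no aged enriched samples, was found in 5 regions (14, 18, 25, 29 and 38), against 5.6% of all regions. Both aged enriched and no aged control samples had a peak in 1, region 39, against 0.561%. Region 38, at 65835583 to 65837183, is the neighbour of region 39, only 89 bp below it. It had peaks in young control replicate 2 (score 115), both young enriched (131 and 64.9) and both aged control samples (141 and 63.7). By any overlap, these neighbours split the aged groups in opposite directions. With merging over 500 bp they formed 1 region, and when 50% of the region had to be under peaks neither aged enriched sample held region 39.

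The 2 other regions held by every sample lay on either side of region 39. Region 42, at 65845837 to 65848154 (2318 bp), had scores of 222 and 155 in young control, 167 and 219.99 in young enriched, 161 and 229.57 in aged control and 116 and 177 in aged enriched samples. It lay above 87.8% to 98.95% of the peaks of each list. Region 37, at 65832274 to 65834656 (2383 bp), had scores of 134 and 104 in young control, 274 and 91.4 in young enriched, 132 and 77.2 in aged control and 73.2 and 110.3 in aged enriched samples. Here young enriched replicate 1 stood out, above 98.98% of its list, while its partner lay above 69.1%.

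Each of the 8 regions with a peak in 7 samples lacked it in an aged enriched sample, 4 in replicate 1 and 4 in replicate 2. Genome-wide the missing sample was an aged enriched one in 77.4% of such regions. Aged enriched replicate 1 had no peak in regions 2, 5, 41 and 43, and aged enriched replicate 2 had none in regions 15, 22, 27 and 45. In such regions the other aged enriched sample holds a peak by definition.

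Among the 4 regions that aged enriched replicate 1 lacked, region 41 (65842149 to 65844494) had the highest single score, while region 43 was higher by median score rank (84.9% against 82.4%). Region 41 had scores of 93.8 and 343 in young control, 113 and 200.4 in young enriched, 84.5 and 83.5 in aged control samples and 194 in aged enriched replicate 2. Region 43 (65848240 to 65849408) had 130 and 161 in young control, 176 and 119 in young enriched, 72.0 and 105 in aged control samples and 109.7 in aged enriched replicate 2. Both lie beside region 42, in the stretch of regions 41 to 43 that 7 or 8 samples held throughout. Region 2 (65734720 to 65736935) had 82.0 and 53.4 in young control, 78.1 and 115 in young enriched, 59.7 and 67.4 in aged control samples and 114 in aged enriched replicate 2. Region 5 (65749853 to 65754861), the widest of the locus at 5009 bp, had 89.3 and 110.06 in young control, 87.4 and 111 in young enriched, 94.7 and 53.8 in aged control samples and 66.8 in aged enriched replicate 2. It joins up to 3 peaks of 1 list, so its width is that of a chain of neighbours.

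Among those that aged enriched replicate 2 lacked, region 22 (65794650 to 65797402) had 89.9 and 193 in young control, 80.6 and 95.6 in young enriched, 59.4 and 55.9 in aged control samples and 74.8 in aged enriched replicate 1. Region 27 (65805616 to 65807153) had 117 and 129.78 in young control, 120.3 and 75.6 in young enriched, 74.0 and 82.3 in aged control samples and 67.8 in aged enriched replicate 1. Region 45 (65851766 to 65854221) had 186 and 175 in young control, 96.0 and 72.2 in young enriched, 56.4 and 50.5 in aged control samples and 61.1 in aged enriched replicate 1. At region 45 the young control samples lay above 96.1% and 91.1% of their lists and the aged control samples above 19.8% and 1.80%.

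**Figure D5:**
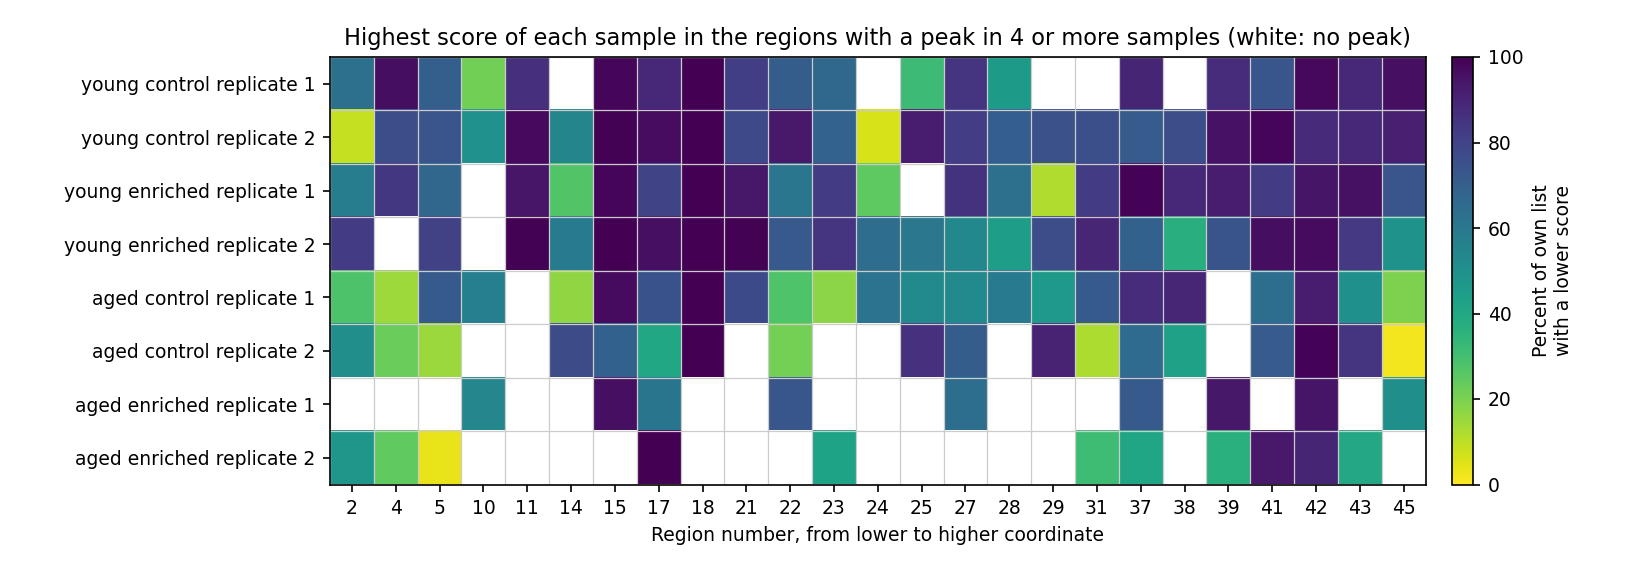
The 25 regions with a peak in 4 or more samples (columns, by number) against the 8 samples (rows), coloured by the percent of peaks in the same list with a score below the highest of that sample in the region. White cells have no peak and are most frequent in the aged enriched rows, which hold 9 and 11 of the 25 regions, against 18 to 25 in the other rows.

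All 6 regions with a peak in 5 samples lacked both aged enriched samples, as did 50.7% of the 9299 such regions of the genome. Region 21 (65792047 to 65793324) was the strongest of them. It had scores of 108 and 119.5 in young control, 158 and 327 in young enriched and 105 in aged control replicate 1. Its 5 peaks began within 49 bp of each other, and it lies above 99.35% of the list of young enriched replicate 2. Region 25 (65802402 to 65804450) had 60.9 and 186 in young control, 81.8 in young enriched replicate 2 and 73.6 and 107 in aged control samples. Region 28 (65810730 to 65811785) had 68.1 and 103 in young control, 82.7 and 68.9 in young enriched samples and 79.5 in aged control replicate 1. Regions 21 and 28 were kept from the pattern of region 11 by aged control replicate 1 alone.

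The last of the 6 beside regions 14 and 38, region 29 (65812181 to 65813178) had 113 in young control replicate 2, 53.4 and 103 in young enriched and 69.2 and 121 in aged control samples. In aged control replicate 2 it lay above 90.2% of the list, higher than any other sample there. Young control replicate 1 had no peak in regions 14, 29 and 38, which all 5 of the other young and aged control samples held. Its list is shorter than those of the other young samples, with 43709 peaks against 57492 to 78980. The list of aged control replicate 2, which held all of these regions, is shorter still (38000 peaks). The part of list length was not tested.

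Of the regions with 6 samples, 3 lacked samples from more than 1 group. Region 4 (65747233 to 65749514) had 193 and 116 in young control, 117 in young enriched replicate 1, 54.4 and 56.5 in aged control samples and 97.3 in aged enriched replicate 2. Region 23 (65797899 to 65799715) had 85.3 and 101 in young control, 113 and 122 in young enriched samples, 55.5 in aged control replicate 1 and 111 in aged enriched replicate 2. Region 31 (65814940 to 65817442) had 114 in young control replicate 2, 112 and 139 in young enriched, 94.6 and 53.1 in aged control samples and 104 in aged enriched replicate 2. In all 3 of these the aged enriched peak was that of replicate 2. Region 24 (65801322 to 65802209) had 4 samples, with 52.3 in young control replicate 2, 58.0 and 85.8 in young enriched and 82.5 in aged control replicate 1.

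The other 21 regions had a peak in 1 to 3 samples, with widths of 332 to 1878 bp and scores of 52.7 to 183. Region 19 (65786275 to 65788152), just above region 18, had a peak in young control replicate 2 (score 183) and young enriched replicate 2 (72.0). Of the 8 regions of a single sample, 3 belonged to aged enriched replicate 2, 2 to aged control replicate 1 and 1 each to aged control replicate 2, aged enriched replicate 1 and young enriched replicate 2. Neither young control sample had a region to itself. Regions of a single sample made up 17.4% at the locus and 46.7% of all regions, and their shares by list over the genome are not given here. Regions 6 and 20 had a peak in 1 young enriched sample and aged enriched replicate 2 only. Genome-wide 2090 of 156744 regions had a peak in 1 young enriched and 1 aged enriched sample alone.

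Read from the lower end, the order of patterns was as follows. Regions 1 to 10 were mostly of mixed membership, with the 7-sample regions 2 and 5 among them. The young-only region 11 was followed by 2 narrow regions of aged enriched replicate 2, then by regions 14 to 17 with 5, 7, 2 and 8 samples, and then by region 18 without aged enriched peaks. Regions 19 to 36 ranged from 1 to 7 samples. None of these 18 had a peak in both aged enriched samples, which only 3.26% of all regions have. From region 37 to region 45 membership was higher again, with 8 samples in regions 37 and 42 and 7 in regions 41, 43 and 45, although region 40 had 2 and region 44 had 3. Both aged enriched samples held region 17 and, in this higher stretch, regions 37, 39 and 42.

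Windows with both contrasting patterns, a young-only region and a region missing only from aged enriched samples, were sought over the genome cut into windows as long as the locus. They numbered 351 of 20224 (1.74%). The window of the locus, placed around it, is not among these fixed windows, which can cut such a pair of regions apart. The 5 with the highest score ranks were chr13:112580001-112710000, chr9:110500001-110630000, chr4:151710001-151840000, chr18:75660001-75790000 and chr15:27690001-27820000. In the first of these the median score ranks of the best young-only and the best region without aged enriched peaks were above 93.8% and 93.1% of the lists, against 95.6% and 99.8% at the Zfp532 locus. No window had a higher sum than the locus, a rank that follows from how the locus was chosen.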

How the data were processed

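Peak lists of 5hmC-enriched DNA from 8 mouse hippocampal samples were used, in 4 groups of 2 that their labels give. Per the submitters' processing notes, CASAVA 1.4, Bowtie 0.12.9, MACS 1.4.2 and build mm9 were used. The authors deposited 1 list per sample with a score for each peak. Each list has its own peak numbering, so peaks were called per sample. The caller's settings, background library and read numbers were not found there, so the depth is unknown and no interval was computed. A list with more reads or a better capture can hold more and wider peaks.

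All peaks were merged into regions where they overlapped by at least 1 bp, and regions with a peak in the window were kept (no peak crossed its edge). A sample held a region if any of its peaks lay in it. Score ranks are the percent of peaks in the same list with a lower score. Coordinates are counted from 1. Regions with a peak in 4 or more samples were described singly and the others by counts, and like windows were the 5 with the highest sum of score ranks. Python 3.11.15 with numpy 2.4.6 and pandas 2.3.3 was used, and merging was tested on simulated data. The members, lists and rules were chosen with earlier results of these data known. Alternatives were a score minimum of 100, equally long lists (25548 peaks each), merging over 500 bp, a presence rule of 50% of the region, peaks wholly inside the window and leaving out each sample.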

Additional observations from a re-analysis of the deposited data

Results flagged for a closer look

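Among 6 measures of the locus, each examined in the 4 young and in the 4 aged samples, 3 values lay far from the other samples of their age by Dixon's criterion for 4 samples, which chance meets in about 1 group in 20. The median peak width of 1223 bp in young control replicate 2 stood above 1093.5 to 1102 bp in the other young samples. This sample also had the fewest peaks at the locus relative to its list, 4.56 per 10000 peaks against 5.55 to 5.72 in the other young samples, and it has the longest list (78980 peaks). The median width of 439 bp in aged enriched replicate 2 stood below 783 to 837 bp in the other aged samples, as it did over the whole list.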

How the results depend on the processing

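No paired analysis was possible because the values come from no test, and the labels do not say that a replicate number is shared across groups by a litter, batch or day. Of 202 values under alternatives, 158 kept within the spread of replicates or 1.5 times the count, 35 moved and 9 changed direction, and the causes were not tested. Part of the 158 could not change. No peak crossed the window edge, so keeping only peaks wholly inside it altered nothing. The ratios between the aged groups do not use young samples, nor those between the young groups aged samples. Regions 11 and 18 kept their patterns under every alternative run, but the locus was chosen on their scores, so this is no support for them. Their lowest scores (123 and 307) lie above the minimum of 100, and their neighbours lie more than 500 bp away. Leaving out a sample does not alter the peaks of the others. Regions with a peak in all 8 samples numbered 1 with a score of at least 100, 5 with merging over 500 bp and 0 with the 50% rule. Regions missing only from aged control samples numbered 0 under each of these 3. The relative ratio of young to aged length (1.172) was 1.458 with a score of at least 100 and 1.616 in equally long lists, and that of peak numbers (1.482) was 2.062 with a score of at least 100. The number of regions was 28 when peaks up to 500 bp apart were merged. Young-only regions numbered 2 in equally long lists and 2 when 50% of the region had to be covered, and 1 to 3 when a sample was left out (3 without aged control replicate 1, 2 without young control replicate 2 or young enriched replicate 1). Regions missing only from aged enriched samples numbered 2 with merging over 500 bp and 4 with the 50% rule, and 1 to 5 without 1 sample (5 without either aged enriched sample, 4 without young control replicate 1, 3 without aged control replicate 2, 2 without young enriched replicate 1). The ratio of young to aged length was 3.854 with a score of at least 100 and 2.001 to 3.279 without 1 sample, highest without aged control replicate 1. That of aged enriched to aged control length was 0.72 with a score of at least 100, 0.502 in equally long lists and 0.267 to 0.429 without 1 sample. That of young enriched to young control length was 0.782 to 1.148 without 1 sample and turned without young control replicate 2. The aged ratio of peak numbers turned to 1.667, and that of length relative to the list to 1.697, with a score of at least 100. The latter was 0.778 to 1.072 without 1 sample. The young ratio of peak numbers turned to 0.941 with a score of at least 100 and was 0.903 to 1.3 without 1 sample. The relative length in young samples was 0.994 in equally long lists and 0.887 to 1.16 without 1 sample. With 2 samples a group, and read numbers unknown, a missing peak may be one just under the caller's threshold.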

Other observations

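Peak edges were set more sharply at some sites than at others. The lists that held regions 21, 28, 24 and 29 began within 49 to 87 bp of each other, and their peaks ended within 148 to 290 bp. None of these regions had an aged enriched peak. At region 17, which all 8 samples held with 1 peak each, the starts ranged over 819 bp and the ends over 798 bp. The latest starts there were those of the aged enriched samples (65780233 and 65780346), against 65779527 to 65779740 in the others. The range at a site thus depends on which lists hold it. At region 31 the starts and ends ranged over 1040 and 2003 bp.

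With a score of at least 100, aged control samples kept 7 of 33 and 5 of 23 locus peaks, aged enriched samples 3 of 10 and 17 of 19, and young samples 12 of 25, 22 of 36, 17 of 32 and 15 of 33.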
